A study of Arabidopsis thaliana with 24 samples.

Results

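The 8 genes described here are the 5 class III homeodomain-leucine zipper genes of Arabidopsis (HD-ZIP III: ATHB8, PHB, PHV, REV and CNA, also called ATHB15) and 3 LITTLE ZIPPER genes (ZPR1, ZPR2 and ZPR3). They are a family and its partners, picked by locus out of 34212 genes in the count table with earlier results of these data known, and each of the 8 has a row. RNA was sequenced from segments of the main root of homozygous pANT:XVE>>axr3-1-YFP plants, in which estradiol activates the transcription factor XVE and XVE switches on axr3-1-YFP, a dominant negative repressor of auxin signalling, in cells where the ANT promoter that drives XVE is active. Plants were 9 d old when they were moved to 5 µM estradiol with 1 µM 6-benzylaminopurine, a synthetic cytokinin (EST + BAP), to 1 µM BAP, to 5 µM estradiol (EST), or to the solvent DMSO. Roots were collected after 4 h or 24 h, and each of the 8 groups has 3 libraries. The libraries of the 2 times come from separate experiments, all 24 carry the transgene, and no estradiol-treated line without it was among the samples, so an effect of estradiol itself and one of axr3-1-YFP cannot be told apart. The levels are those of a whole root segment, in which fewer cells of a type and less RNA per cell cannot be told apart either.

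HD-ZIP III proteins are plant transcription factors that pattern the vascular cylinder, where they act in xylem and procambium, and their messenger RNAs are cleaved under the guidance of the microRNAs miR165 and miR166. ATHB8 is activated by auxin through the response factor MP in leaf procambium. The ZPR genes encode small proteins with a leucine zipper but no DNA-binding domain, which pair with HD-ZIP III proteins and keep them from binding DNA. Transcription of ZPR genes is itself raised by HD-ZIP III proteins in seedlings, which makes a negative feedback loop.

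The microRNA and its site are shown because all 5 HD-ZIP III genes share this control. The mature sequences were read from the TAIR10.1 genome at the RefSeq positions of the loci, with the seed (bases 2 to 8) in capitals. MIR166A (chr2:19176241-19176261, plus strand), MIR166B and MIR166E give the same letters, and MIR165A (chr1:78932-78952, minus strand) shares the seed:
miR166a: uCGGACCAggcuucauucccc
miR165a: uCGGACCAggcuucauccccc
The best match to the reverse complement of miR166 in each spliced HD-ZIP III transcript follows, with the bases that pair with miR166 in capitals:
PHB: ttGGgATGAAGCCTGGTCCGg
PHV: ttGGgATGAAGCCTGGTCCGg
ATHB8: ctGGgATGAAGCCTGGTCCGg
REV: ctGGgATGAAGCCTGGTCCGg
CNA: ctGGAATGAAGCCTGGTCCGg
Each site lies in coding sequence and is joined from 2 exons, exons 5 and 6 in ATHB8 and exons 4 and 5 in PHB, PHV, REV and CNA. Including the intron, the site spans chr2:14642530-14642666 in PHB and chr1:10799330-10799445 in PHV (both minus strand). PHB and PHV have identical sites, as do ATHB8 and REV, with 4 unpaired bases each against miR166, of which 2 are G to U pairs. CNA has 3. The next best match in any of these transcripts had 8 or 9 unpaired bases.

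PHB (AT2G34710, chr2:14639323-14644355, minus strand) and PHV (AT1G30490, chr1:10796124-10801093, minus strand) are the most alike pair, and their longest RefSeq transcripts align over 2532 bases at 83.4% identity. ATHB8 is AT4G32880 (chr4:15863339-15868650, minus strand), CNA is AT1G52150 (chr1:19409688-19414764, minus strand) and REV is AT5G60690 (chr5:24396981-24402195, plus strand). REV overlaps AT5G60700 on the opposite strand, with 67 bases shared by their transcripts, and since no strand option is given for the quantification, reads of that overlap could count for either gene. The ZPR genes are shorter, with 2 exons in the longest transcript: ZPR1 is AT2G45450 (chr2:18733275-18734341), ZPR2 is AT3G60890 (chr3:22496875-22498099) and ZPR3 is AT3G52770 (chr3:19557516-19559323), all on the minus strand. In the 250 bases before the annotated start, TGTCTC, a form of the auxin response element, was searched for on both strands. It was found in 1 of the 8 genes, ATHB8, against 10.9% of 27443 protein-coding genes. Other forms of the element were not searched for, and binding of MP to this match was not tested. The 250 bases before ATHB8 (chr4:15868651-15868900, minus strand) are printed as the upstream sequence of the member with this match, in capitals:
ATHB8 upstream: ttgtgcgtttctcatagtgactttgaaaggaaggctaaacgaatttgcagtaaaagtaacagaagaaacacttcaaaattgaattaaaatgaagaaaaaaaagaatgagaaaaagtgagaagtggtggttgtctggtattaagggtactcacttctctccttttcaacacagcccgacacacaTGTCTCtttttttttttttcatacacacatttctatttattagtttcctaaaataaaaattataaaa
The type-B ARR core AGATT was found in PHB (1 match) and ZPR3 (3 matches), against 63.7% of all genes, GGATT in REV (1 match), against 38.0%, and ATGATT, a core bound by HD-ZIP III proteins, in PHV, CNA and ZPR3 (1 match each), against 28.9%.

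Levels are given in CPM, the share of a library's counts taken by a gene, with library sizes adjusted by TMM over all 24 libraries. In the 24-h DMSO libraries, levels were also taken per kilobase of the longest RefSeq transcript. The HD-ZIP III genes had means of 29.5 ± 1.08 CPM per kb for CNA, 29.0 ± 6.72 for ATHB8, 26.5 ± 3.04 for PHB, 19.5 ± 1.82 for REV and 13.4 ± 0.515 for PHV (SD, n = 3). The ZPR genes lay at 1.61 ± 0.402 (ZPR1), 0.644 ± 0.204 (ZPR3) and 0.241 ± 0.0726 (ZPR2). The HD-ZIP III genes thus rest on 286 to 4859 counts per library. ZPR1 had 8 to 229 counts, ZPR3 6 to 69 and ZPR2 1 to 12, so the ZPR values are the less precise ones.

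Total counts per library ran from 14514022 to 45586679. Ribosomal RNA took 54.1% of DMSO 24 h replicate 1, which left 6001669 counts on other nuclear genes, and 32.5% of BAP 24 h replicate 1. Because the first of these libraries stands apart, values without it are given beside the calls of the 8 genes against DMSO at 24 h, and where an adjusted p crossed 0.05 without it. The other genes named were not fitted without it. AXR3 counts hold the transgene and the endogenous gene together. AXR3 was called higher in EST than in DMSO at 4 h (158 ± 24.1 and 48.9 ± 1.72 CPM, log2 fold change 1.69, edgeR adjusted p = 0.0298). At 24 h it had 85.3 ± 4.12 CPM in EST and 72.6 ± 4.42 CPM in DMSO (log2 fold change 0.23, edgeR adjusted p = 0.0720). BAP without estradiol had 165 ± 11.6 CPM at 4 h and 211 ± 8.16 CPM at 24 h. EST + BAP had 283 ± 28.7 and 151 ± 15.4 CPM at these times. AXR3 counts thus do not measure induction of the transgene alone.

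**Figure D1:**
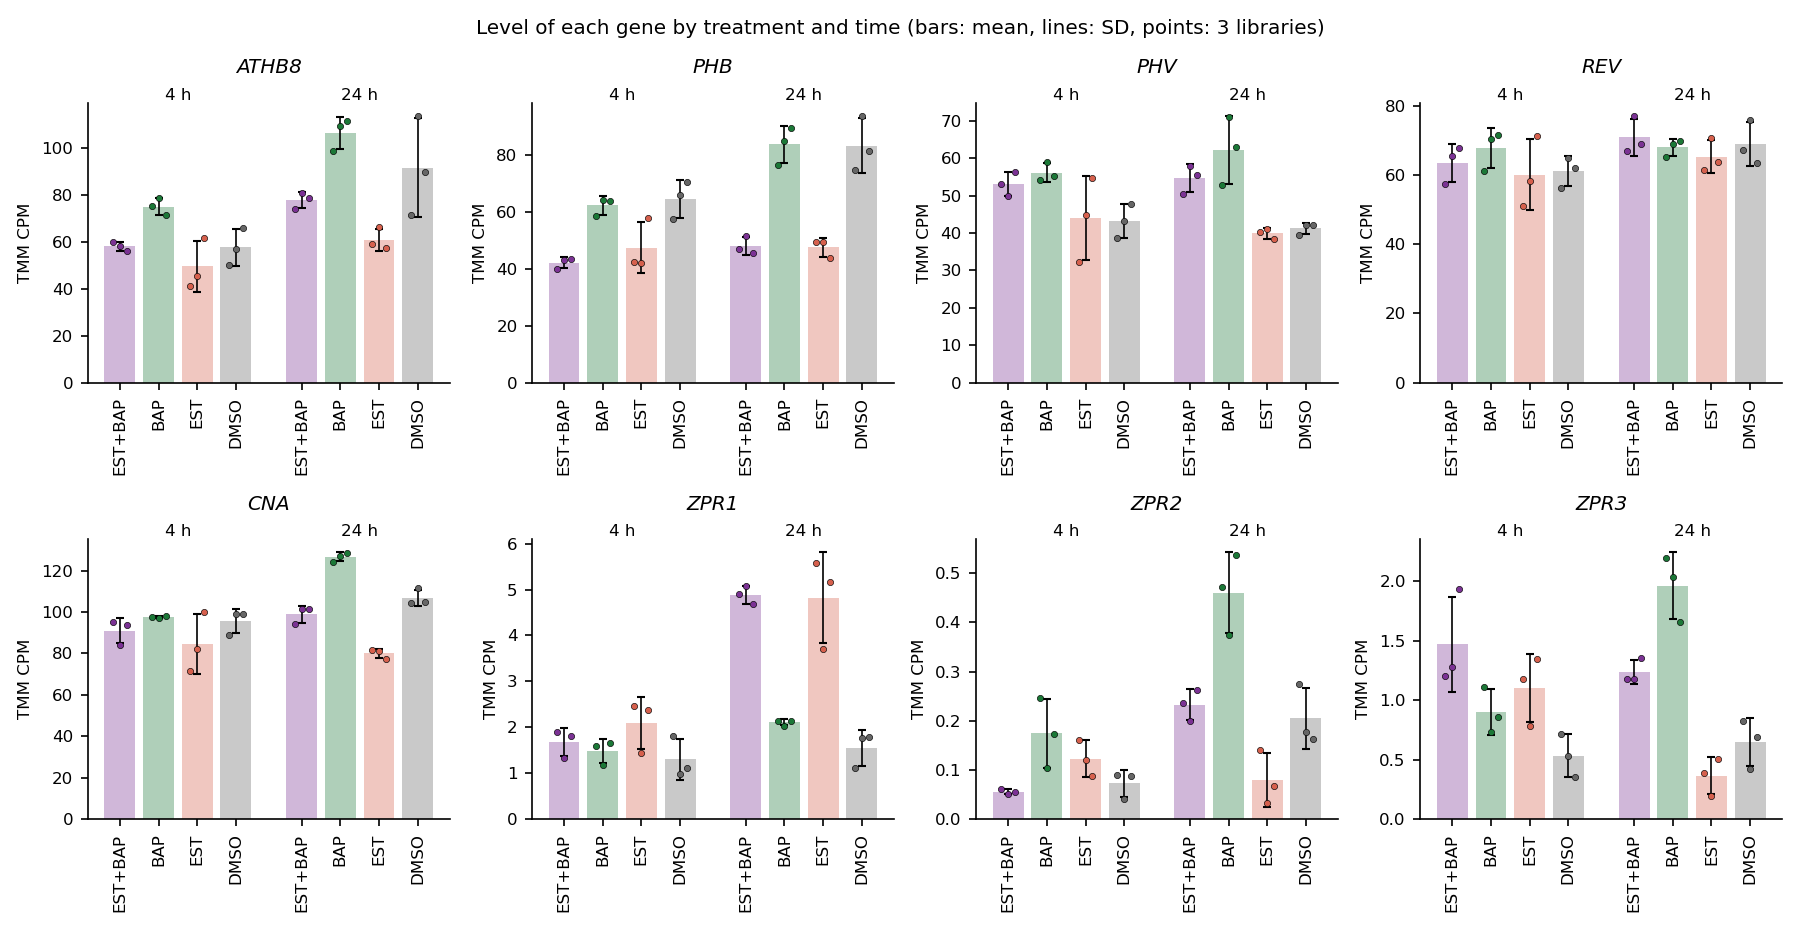
TMM CPM (y axis, from 0) of each of the 8 genes in EST + BAP, BAP, EST and DMSO at 4 h and at 24 h; bars are means, lines are SD and points are the 3 libraries of a group. PHB is near 48 CPM in both 24-h groups that received EST and near 83 CPM in both that did not, PHV is higher with BAP, REV is level, and ZPR1 is near 4.8 CPM in both 24-h groups with EST.

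Pairs of groups were compared with edgeR's quasi-likelihood test. A gene counted as called where its log2 fold change was 0.5 or more in size and its p, adjusted over all genes tested by the method of Benjamini and Hochberg, was 0.05 or less. Of the 8 genes, 7 passed edgeR's filter on low counts in each comparison fitted with all its libraries and genes, and ZPR2 passed in none of these. At 24 h, EST lowered PHB and ATHB8 and raised ZPR1 relative to DMSO, so 3 of the 7 genes tested were called, against 15.2% of all genes. BAP raised PHV and ZPR3 (2 of 7, against 34.9% of all genes). EST + BAP lowered PHB and raised ZPR1 and ZPR3 relative to DMSO (3 of 7, against 20.5%). With BAP present in both groups, EST lowered PHB and ZPR3 and raised ZPR1 (EST + BAP against BAP, 3 of 7, against 23.4%), and with EST present in both, BAP raised ZPR3 (EST + BAP against EST, 1 of 7, against 30.3%).

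At 4 h, fewer of the genes were called. EST against DMSO called none of the 7, against 0.0139% of all genes (3 of 21574). In that comparison PHB and ZPR3 had an unadjusted p under 0.05 by edgeR, and DESeq2 also called none of the 7. BAP against DMSO called none of the 7, against 16.8% of all genes, with 3 at an unadjusted p under 0.05 by edgeR (ATHB8, PHV and ZPR3) and none called by DESeq2. EST + BAP against DMSO called PHB lower and ZPR3 higher (2 of 7, against 11.0%), and EST + BAP against BAP called PHB lower (1 of 7, against 0.334%). EST + BAP against EST called none, against 7.54% of all genes, with none at an unadjusted p under 0.05 by edgeR and none called by DESeq2.

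**Figure D2:**
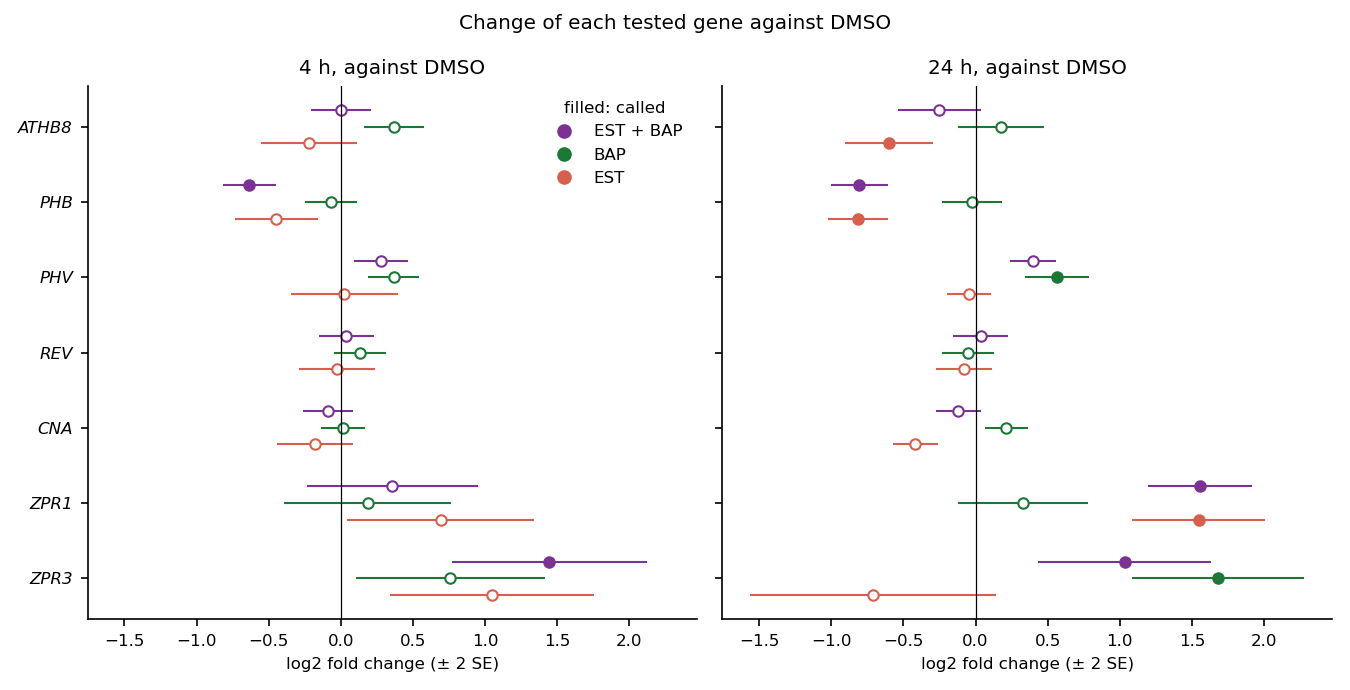
Log2 fold change against DMSO (x axis) of the 7 tested genes after EST + BAP, BAP and EST, at 4 h (left) and 24 h (right); lines are ± 2 SE and filled points are called genes. PHB lies left of 0 with EST and with EST + BAP at both times, while the BAP points of PHB lie on 0; PHV shows the other pattern.

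PHB, which in embryos and leaves specifies the upper side and in the root acts in the stele, followed EST. At 24 h it had 49.5, 49.4 and 43.6 CPM in the EST libraries, against 74.8, 93.6 and 81.2 CPM in DMSO. In EST + BAP it had 46.8, 51.4 and 45.5 CPM, against 76.6, 84.9 and 89.5 CPM in BAP. The EST groups did not overlap with the groups without EST, and BAP libraries overlapped with DMSO. PHB fell to 0.569 times its DMSO level with EST (log2 fold change -0.81 ± 0.10, SE, edgeR adjusted p = 0.000765), and to 0.580 times its BAP level with EST + BAP (-0.79 ± 0.08, edgeR adjusted p = 0.000175). Against DMSO, EST + BAP gave the same size of change (-0.81 ± 0.10, edgeR adjusted p = 0.000275), and BAP alone gave -0.03 ± 0.10. Without DMSO 24 h replicate 1, the EST and EST + BAP changes against DMSO were -0.88 and -0.88.

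At 4 h, PHB had 39.8, 42.9 and 43.5 CPM in EST + BAP, against 57.3, 65.9 and 70.4 CPM in DMSO. PHB fell here too (log2 fold change -0.63 ± 0.09, edgeR adjusted p = 0.00589). BAP libraries at this time had 58.5, 64.3 and 63.9 CPM, so EST + BAP lay below them as well (-0.55 ± 0.07, edgeR adjusted p = 0.0337). That second call was lost in 5 of the 6 fits without 1 library (adjusted p up to 0.181) and with all 4 groups in 1 fit (edgeR adjusted p = 0.115), while the fold change stayed between -0.60 and -0.51. EST alone at 4 h had 42.2, 42.2 and 57.8 CPM, with the highest library inside the DMSO range (-0.45 ± 0.14, edgeR adjusted p = 1).

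PHV, the close relative of PHB with the same microRNA site, followed BAP. At 24 h it had 52.9, 71.0 and 63.0 CPM in BAP, against 39.4, 42.1 and 42.3 CPM in DMSO. All 3 BAP libraries lay above all 3 DMSO libraries, and PHV rose by 0.56 ± 0.11 log2 units (edgeR adjusted p = 0.00255). The value without DMSO 24 h replicate 1 was 0.54, and without BAP 24 h replicate 2, the highest library, it was 0.46, under the fold cutoff. EST + BAP had 50.5, 57.8 and 55.6 CPM, also above DMSO (0.40 ± 0.08, edgeR adjusted p = 0.00463) and above EST, which had 40.4, 41.1 and 38.3 CPM (0.45 ± 0.07, edgeR adjusted p = 0.00104). Neither difference reached the fold cutoff of 0.5, so neither was called. The EST libraries of PHV overlapped with DMSO (-0.05 ± 0.08, edgeR adjusted p = 0.688), and a drop of the size seen in PHB lies outside the ± 2 SE interval of -0.20 to 0.10. At 4 h, PHV had 54.2, 59.0 and 55.3 CPM in BAP, against 38.7, 43.2 and 47.7 CPM in DMSO (0.37 ± 0.09, edgeR adjusted p = 0.0204, under the fold cutoff).

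The ratio of PHB to PHV counts within a library needs no scaling between libraries, and it is given as a description, because the pair was picked after both patterns were seen. At 24 h it was 0.926, 0.889 and 0.817 in EST + BAP, 1.45, 1.197 and 1.42 in BAP, 1.22, 1.2 and 1.14 in EST, and 1.90, 2.23 and 1.92 in DMSO. Every EST + BAP library thus lay below every BAP and EST library, and each of those below every DMSO library. The 4-h libraries had the same outer groups, with 0.749, 0.859 and 0.773 in EST + BAP, against 1.48, 1.53 and 1.48 in DMSO. BAP (1.08 to 1.15) and EST (0.938 to 1.31) lay between these and overlapped with each other. In the EST libraries at 4 h, where PHB itself was not called, the ratio was below that of all 3 DMSO libraries.

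**Figure D3:**
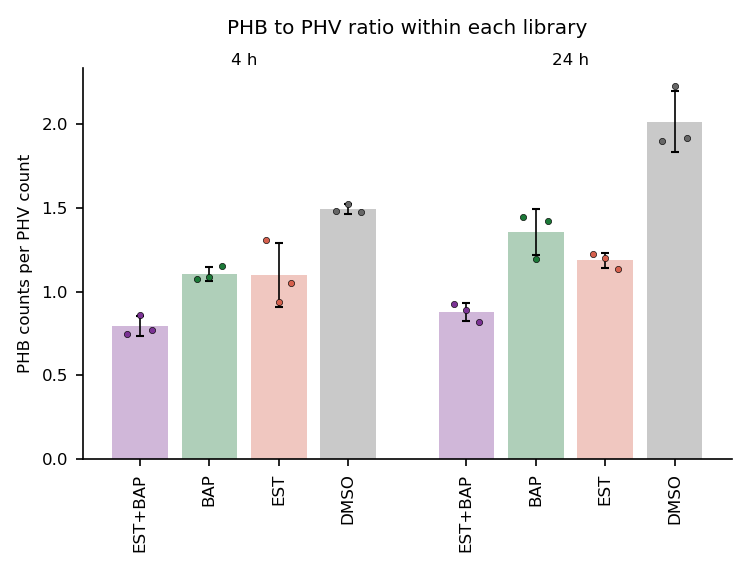
PHB counts divided by PHV counts (y axis, from 0) in each library of EST + BAP, BAP, EST and DMSO at 4 h and 24 h; bars are means, lines are SD and points are the 3 libraries. At both times EST + BAP is lowest, with means of 0.794 at 4 h and 0.877 at 24 h, and DMSO is highest, with means of 1.49 and 2.02.

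ATHB8, a gene of procambium and early xylem cells, and CNA, its closest relative here at 72.6% identity over 2515 aligned bases of ATHB8, were lower with EST at 24 h. At 24 h, ATHB8 had 59.3, 66.3 and 57.3 CPM in EST, against 71.4, 114 and 89.9 CPM in DMSO. The groups did not overlap, and ATHB8 fell by 0.60 log2 units (SE 0.15, edgeR adjusted p = 0.0213). The DMSO libraries of ATHB8 spread widely: without replicate 1, the lowest and the one rich in ribosomal RNA, the change was -0.74 (edgeR adjusted p = 0.00464), and without replicate 2, the highest, it was -0.41 and was no longer called. Leaving out 1 library ended the call in 4 of 6 fits, with adjusted p up to 0.0747. With BAP present, ATHB8 had 74.2, 80.8 and 78.5 CPM in EST + BAP, against 98.8, 109 and 112 CPM in BAP, again without overlap (-0.44 ± 0.07, edgeR adjusted p = 0.00148, under the fold cutoff). EST + BAP lay above EST by 0.35 ± 0.08 (edgeR adjusted p = 0.00557), also under the cutoff. Against DMSO, EST + BAP gave -0.25 ± 0.14 (edgeR adjusted p = 0.222), and -0.40 without DMSO 24 h replicate 1 (edgeR adjusted p = 0.0268).

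CNA, which limits vascular cell formation in the stem, had 81.6, 81.0 and 77.3 CPM in EST at 24 h, against 104, 111 and 105 CPM in DMSO (log2 fold change -0.42 ± 0.08, edgeR adjusted p = 0.00517). BAP libraries had 124, 127 and 128 CPM, above all DMSO libraries (0.21 ± 0.07, edgeR adjusted p = 0.0397). Without DMSO 24 h replicate 1 that difference was 0.20 with an edgeR adjusted p of 0.0913. EST + BAP had 94.0, 101 and 101 CPM, between EST and BAP: 0.34 ± 0.06 below BAP (edgeR adjusted p = 0.00257) and 0.30 ± 0.07 above EST (edgeR adjusted p = 0.00558). The 4 groups of CNA did not overlap at 24 h, but each of these differences is smaller than the fold cutoff and none was called. At 4 h, CNA lay between 84.2 and 95.3 CPM in EST + BAP, 97.1 and 98.1 CPM in BAP, 71.3 and 100.2 CPM in EST and 88.9 and 99.2 CPM in DMSO, with no adjusted p under 0.05. ATHB8 at 4 h had 75.2, 78.7 and 71.3 CPM in BAP, against 50.0, 56.9 and 65.9 CPM in DMSO (0.37 ± 0.11, edgeR adjusted p = 0.0366, under the cutoff).

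REV, which promotes interfascicular fibres and meristem formation, was level. Its group means ran from 60.1 ± 10.3 CPM in EST at 4 h to 71.0 ± 5.39 CPM in EST + BAP at 24 h, a ratio of 1.18, and each group overlapped with its neighbours in that order. At 24 h REV had 61.6, 70.9 and 63.7 CPM in EST, against 67.4, 76.1 and 63.5 CPM in DMSO (log2 fold change -0.08 ± 0.10, edgeR adjusted p = 0.604). BAP gave -0.05 ± 0.09 against DMSO. In these 2 comparisons the ± 2 SE intervals were -0.27 to 0.12 and -0.23 to 0.13, which leave out a change of the fold cutoff or more. REV has the same microRNA site as ATHB8.

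Across all 8 groups, the order of the means was BAP 24 h, DMSO 24 h, EST + BAP 24 h, BAP 4 h, EST 24 h, EST + BAP 4 h, DMSO 4 h and EST 4 h for ATHB8, and among neighbours only BAP 4 h and EST 24 h did not overlap. For PHB the order was BAP 24 h, DMSO 24 h, DMSO 4 h, BAP 4 h, EST + BAP 24 h, EST 24 h, EST 4 h and EST + BAP 4 h. By mean, the 4 PHB groups without EST came before the 4 with EST. The last of the first 4 did not overlap with the first of the others, and DMSO 24 h lay apart from DMSO 4 h. EST 4 h, with its highest library at 57.8 CPM, still overlapped with DMSO 4 h, whose lowest had 57.3 CPM. For PHV the 4 groups with BAP came before the 4 without, but each neighbouring pair overlapped. Since the 2 times are separate experiments, orders across them are a description.

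ZPR1, which can pair with REV and its relatives, followed EST at 24 h, with 5.58, 3.70 and 5.17 CPM (200, 113 and 154 counts) in EST, against 1.1025, 1.77 and 1.78 CPM (8, 50 and 44 counts) in DMSO. In EST + BAP it had 4.90, 5.08 and 4.68 CPM, against 2.15, 2.04 and 2.14 CPM in BAP. Groups with and without EST did not overlap. ZPR1 rose 2.92-fold with EST against DMSO (log2 fold change 1.55 ± 0.23, edgeR adjusted p = 0.00171), 2.94-fold with EST + BAP against DMSO (1.55 ± 0.18, edgeR adjusted p = 0.000193) and 2.35-fold with EST + BAP against BAP (1.23 ± 0.13, edgeR adjusted p = 0.000242). Without DMSO 24 h replicate 1, whose 8 counts are the fewest, the first 2 values were 1.44 and 1.45. ZPR1 was called in these 3 comparisons under each alternative run. At 4 h, ZPR1 had 2.47, 1.44 and 2.37 CPM in EST, against 1.81, 0.980 and 1.11 CPM in DMSO, which overlap (0.69 ± 0.32, edgeR adjusted p = 1).

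ZPR3, which limits HD-ZIP III activity in the shoot meristem, followed BAP at 24 h. It had 2.20, 2.04 and 1.66 CPM (42, 49 and 34 counts) in BAP, against 0.827, 0.425 and 0.689 CPM (6, 12 and 17 counts) in DMSO. In EST + BAP it had 1.18, 1.18 and 1.35 CPM, against 0.391, 0.197 and 0.504 CPM in EST. The groups with BAP lay above those without. ZPR3 rose 3.21-fold with BAP against DMSO (log2 fold change 1.68 ± 0.30, edgeR adjusted p = 0.00148) and 3.34-fold with EST + BAP against EST (1.74 ± 0.33, edgeR adjusted p = 0.00213), and both calls held under each alternative run. Without DMSO 24 h replicate 1 the first was 1.80. EST + BAP against DMSO was called too (1.03 ± 0.30, edgeR adjusted p = 0.0261; 1.14 without DMSO 24 h replicate 1), although not by DESeq2 (adjusted p = 0.0815) nor in 3 of the 6 fits without 1 library, among them the one without DMSO 24 h replicate 2 (0.74, edgeR adjusted p = 0.133). Against BAP, EST + BAP lowered ZPR3 (-0.66 ± 0.21, edgeR adjusted p = 0.0343), a call that was lost with the replicate number as a block, where libraries of these groups with the same number deviated together (-0.66, edgeR adjusted p = 0.0545), with DESeq2 (adjusted p = 0.0905), with all 4 groups in 1 fit (edgeR adjusted p = 0.0700) and in 5 of the 6 fits without 1 library.

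At 4 h, ZPR3 had 1.202, 1.28 and 1.93 CPM in EST + BAP, 1.11, 0.734 and 0.860 CPM in BAP, 1.18, 0.783 and 1.34 CPM in EST, and 0.712, 0.531 and 0.352 CPM in DMSO. Each treated group lay above all 3 DMSO libraries. The EST + BAP difference was called (log2 fold change 1.44 ± 0.34, edgeR adjusted p = 0.0282), but it lost the call in 4 of the 6 fits without 1 library (adjusted p up to 0.102) and with the replicate block (edgeR adjusted p = 0.0556). EST (1.05 ± 0.35, edgeR adjusted p = 1) and BAP (0.76 ± 0.33, edgeR adjusted p = 0.128) were not called.

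ZPR2 had too few counts to pass the filter. At 24 h it had 6, 9 and 6 counts in EST + BAP (0.200 to 0.262 CPM), 9, 9 and 11 in BAP (0.374 to 0.536 CPM), 5, 1 and 2 in EST (0.0328 to 0.140 CPM) and 2, 5 and 4 in DMSO (0.162 to 0.276 CPM). The BAP libraries lay above those of the other 3 groups. At 4 h, ZPR2 had 2 to 12 counts, with 2, 2 and 2 in EST + BAP, 12, 3 and 5 in BAP, 6, 4 and 3 in EST and 3, 2 and 3 in DMSO. Summed over ZPR1, ZPR2 and ZPR3, the 24-h ZPR level was 6.29 to 6.45 CPM in EST + BAP, 4.34 to 4.82 CPM in BAP, 3.93 to 6.12 CPM in EST and 2.20 to 2.63 CPM in DMSO.

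Whether EST acted differently with and without BAP was tested as an interaction. At 24 h none of the 7 genes was called for this interaction, against 1.40% of all genes, and none had an unadjusted p under 0.05 by edgeR or was called by DESeq2. The interaction was 0.02 ± 0.13 log2 units for PHB, with a ± 2 SE interval of -0.24 to 0.29, and -0.31 ± 0.26 for ZPR1, with an interval of -0.84 to 0.21. At 4 h none of the 7 was called, against 0% of all genes (0 of 21933, with 893 at an unadjusted p under 0.05 by edgeR and 8 called by DESeq2), and none of the 7 had an unadjusted p under 0.05. The EST effect can thus be read in 2 backgrounds that share no library. The dose of the induced transgene need not be the same in both, because the ANT promoter drives XVE. The paper lists ANT among genes induced by cytokinin. Group means of ANT ran from 17.8 to 229 CPM here. Against DMSO, BAP called 4 of the 6 cambium markers, which include ANT, higher at 4 h and at 24 h. Whether the dose differed was not tested, since AXR3 counts hold the endogenous gene too. PHB gave -0.81 without and -0.79 with BAP, ATHB8 -0.60 and -0.44, CNA -0.42 and -0.34, and ZPR1 1.55 and 1.23. The BAP effect without and with EST was 1.68 and 1.74 for ZPR3, 0.56 and 0.45 for PHV, 0.21 and 0.30 for CNA, and 0.18 and 0.35 for ATHB8. For ATHB8 the interaction was 0.16 ± 0.18 (edgeR adjusted p = 0.743), and without DMSO 24 h replicate 1 the BAP effect without EST was 0.04 and the interaction 0.29 (edgeR adjusted p = 0.381).

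**Figure D4:**
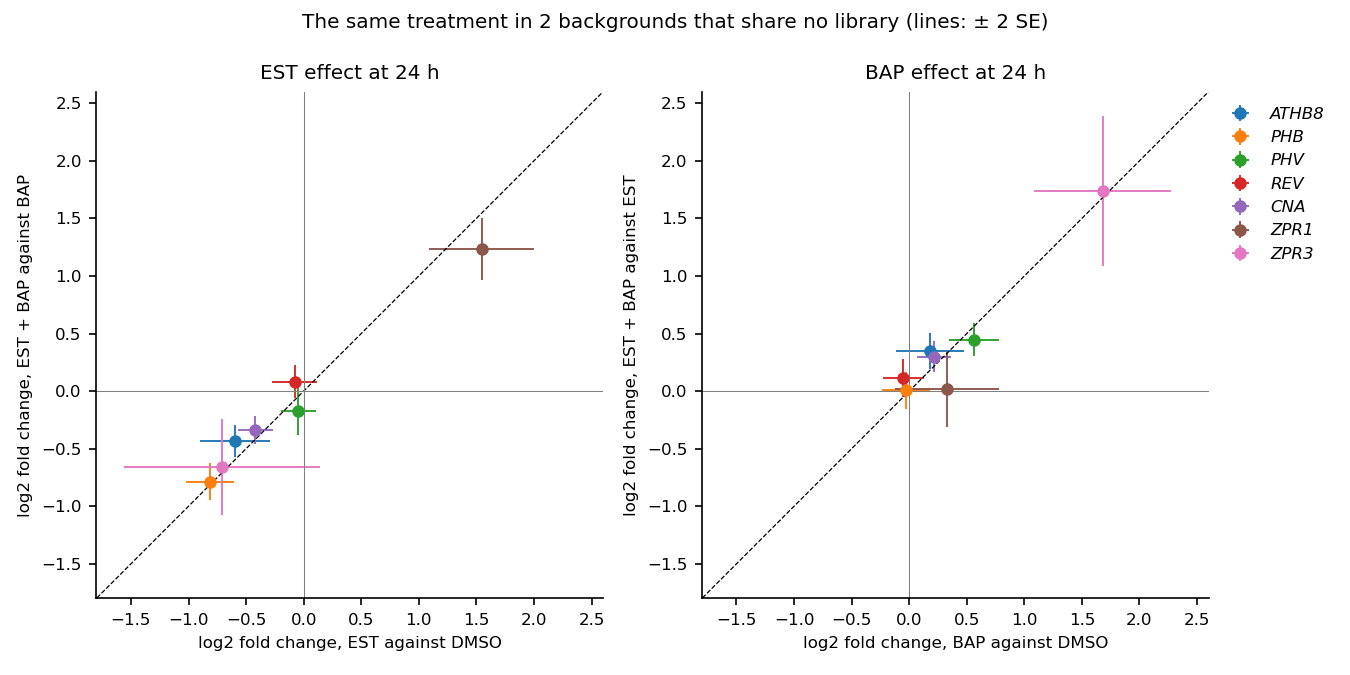
Log2 fold changes at 24 h of the 7 tested genes. Left, EST against DMSO (x axis) and EST + BAP against BAP (y axis); right, BAP against DMSO (x axis) and EST + BAP against EST (y axis). Lines are ± 2 SE and the dashed line marks equal effects. PHB and ZPR1 lie farthest from 0 on the left and ZPR3 on the right, each near the dashed line.

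Effects at 24 h and 4 h were set against each other by an interaction with time. None of the 7 genes was called for EST by time, against 5.18% of all genes, nor for BAP by time, against 6.82%. DESeq2 called none of the 7 in either. By edgeR, ZPR3 had an unadjusted p of 0.00920 for EST by time (log2 difference -1.78 ± 0.57, edgeR adjusted p = 0.101), with EST values of 1.18, 0.783 and 1.34 CPM at 4 h above DMSO and 0.391, 0.197 and 0.504 CPM at 24 h overlapping with it. CNA had an unadjusted p of 0.0464 for BAP by time (0.22 ± 0.10, edgeR adjusted p = 0.210). No other member had an unadjusted p under 0.05 by edgeR.

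Genes around the HD-ZIP III genes were followed as lists. Their counts are to be read beside the share of all genes called in the same comparison. Against DMSO at 24 h that share was 15.2% in EST, 34.9% in BAP and 20.5% in EST + BAP. At 4 h it was 0.0139%, 16.8% and 11.0% in the same order. For EST + BAP at 24 h it was 23.4% against BAP and 30.3% against EST. In the list of miR165 and miR166 genes and their partners, 6 of 13 genes were tested: MIR165A was not analysed here, and of the 8 MIR genes with a row 6 had 0 counts in all 24 libraries. These are counts of primary transcripts, not of mature microRNA. AGO10, an Argonaute that binds miR166 and keeps it from its targets, was called higher at 24 h in EST + BAP (55.0 ± 8.70 CPM, log2 fold change 1.24, edgeR adjusted p = 0.000142) and in EST (35.6 ± 1.63 CPM, 0.62, edgeR adjusted p = 0.00373) than in DMSO (23.1 ± 3.10 CPM; SD, n = 3). MIR166A was lower in EST at 24 h (-0.59, edgeR adjusted p = 0.0171), and SCR, a root radial patterning gene that drives MIR165A and MIR166B in the endodermis, was lower in BAP at 24 h (-0.96, edgeR adjusted p = 0.00106). Counted against DMSO, this list had 1 gene called higher and 2 lower in EST, 0 and 1 in BAP, and 1 and 1 in EST + BAP at 24 h. At 4 h the list had 1 gene called higher and 0 lower in EST + BAP, and none called in BAP or EST.

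Of the auxin and cytokinin genes that act upstream of the HD-ZIP III genes in vascular tissue, 6 of 7 were tested. In EST at 24 h, 0 were called higher and 2 lower, with a median log2 fold change of -0.49 against 0.01 for all genes. TMO5, a transcription factor that starts vascular divisions, fell (-0.57, edgeR adjusted p = 0.00762), while MP was 0.49 log2 units lower, just under the fold cutoff. MP rose in BAP (0.89, edgeR adjusted p = 0.000129) and in EST + BAP (0.95, edgeR adjusted p = 6.92e-05). This list had 2 genes called higher and 0 lower in BAP, and 1 and 2 in EST + BAP at 24 h. At 4 h it had 1 called higher in BAP, and none called in EST + BAP or EST.

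Among 8 reported targets of HD-ZIP III proteins, 7 were tested in EST at 24 h, of which 2 were called higher and 3 lower, with a median of -0.65. ATHB2 (-0.67, edgeR adjusted p = 0.00118) and HAT2 (-0.65, edgeR adjusted p = 0.00621), both class II HD-ZIP genes, fell, and YUC5, an auxin synthesis gene, rose (0.57, edgeR adjusted p = 0.00650). In BAP 3 of 8 were called higher and 1 lower (median 0.40), against 34.9% of all genes. HAT2 was higher there (0.88, edgeR adjusted p = 0.000495) and YUC5 lower (-1.23, edgeR adjusted p = 0.000125). EST + BAP called 0 higher and 3 lower of 7 (median -0.40), against 20.5% of all genes. Relative to BAP, EST + BAP called 1 of 8 higher and 6 lower (median -0.91), against 23.4% of all genes. At 4 h the target list had 4 genes called higher in BAP, 1 in EST + BAP and none in EST, and none lower. The KANADI genes, which oppose HD-ZIP III genes, had 0 of 4 called higher and 1 lower in EST, 2 and 0 in BAP, and 1 and 0 in EST + BAP at 24 h. KAN2 was the one with the largest BAP rise (1.15, edgeR adjusted p = 0.000246), KAN3 rose by less (0.69, edgeR adjusted p = 0.0359), and KAN1 had -0.47 (edgeR adjusted p = 0.0213, under the cutoff). At 4 h, 2 KANADI genes were called higher in BAP, and none in EST + BAP or EST.

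Cell-type markers moved with some of these results, and their counts are also to be read beside the shares of all genes given for the lists. All 6 cambium markers (ANT, WOX4, PXY, LBD3, LBD4 and CYCD3;1) reached 1 CPM in DMSO, and at 24 h all 6 were called lower in EST, with a summed level of 169 to 173 CPM against 350.0 to 441 CPM in DMSO. That sum was lower in the comparison in which PHB and ATHB8 fell. In EST + BAP, where PHB was as low as in EST, the cambium sum was 369 to 434 CPM, inside the range of DMSO. It was 564 to 704 CPM in BAP, where PHB was not called and PHV was higher. Against BAP, EST + BAP thus had the lower cambium sum, with 3 of 6 markers called lower and 0 higher (median log2 fold change -0.51). PHB was called lower in that comparison too. Phloem markers had 3 of 4 genes called lower in EST at 24 h (85.4 to 87.1 CPM summed, against 148 to 176 CPM in DMSO). Xylem differentiation markers had 0 of 8 called in that comparison (397 to 526 CPM, against 367 to 415 CPM). Endodermis and suberised tissue markers (CASP1, CYP86A1, GPAT5 and ASFT) had 1 of 4 called higher in it (185 to 402 CPM, against 163 to 251 CPM). In EST + BAP against BAP at 24 h, 6 of 8 xylem markers were called higher and 0 lower (475 to 497 CPM, against 284 to 321 CPM). The BAP sum of the xylem markers also lay below that of DMSO, with 1 of 8 called lower. Root tip and lateral root markers were near 0, with at most 9.05 CPM summed over 5 genes in any library, root hair markers had at most 17.7 CPM over 2 genes, and green shoot markers had 0 of 3 called in EST at 24 h. In EST + BAP at 24 h, phloem markers had 3 of 4 genes called lower and 1 higher against DMSO (87.3 to 104 CPM summed in EST + BAP). The same counts were found against BAP (133 to 135 CPM in BAP). Their sum was thus lower in the 24-h comparisons in which PHB was called. It was also lower in BAP than in DMSO at 24 h, where PHB was not called. At 4 h the phloem sum in EST + BAP (187 to 215 CPM) overlapped with DMSO (168 to 214 CPM) and BAP (192 to 251 CPM), although PHB was called lower there. All 3 green shoot markers were called lower in BAP (70.3 to 105 CPM) and in EST + BAP (126 to 153 CPM) than in DMSO (214 to 264 CPM), and in EST + BAP than in EST (239 to 298 CPM). Endodermis and suberised tissue markers had 3 of 4 called higher in BAP and in EST + BAP than in DMSO. Both lists moved in comparisons in which PHV or ZPR3 was higher. Endodermis and suberised tissue markers also had 3 of 4 called higher in EST + BAP than in BAP, where ZPR3 was called lower and PHV was not called. There, 1 of 3 green shoot markers was called higher. The part of cell composition in the changes of the 8 genes was not tested.

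The genes whose levels ran most like each member were found by Pearson's r of log2 CPM over the 24 libraries, after the mean of each time was removed, among 15607 genes. These are descriptions over libraries that share treatments. ATHB8 was most like AT5G01890 (r = 0.94) and NIK1 (0.94), CNA like MOL1 (0.97) and AT2G44830 (0.95), PHB like AT4G29920 (0.93) and AT2G25790 (0.91), and PHV like AT5G02240 (0.92) and BAM2 (0.92). REV, which was level, had lower values, with EMB2247 (0.80) and AT4G36080 (0.78) first. ZPR1 was most like ATL8 (0.89) and KCS20 (0.89), ZPR3 like AT1G76550 (0.90) and AT3G52960 (0.89), and ZPR2, at 1 to 12 counts, like AT5G05830 (0.90) and AT1G21740 (0.89). Within the 8 genes, ATHB8 and CNA ran together most closely (0.88), PHB and PHV had 0.23, and PHB and ZPR1 had -0.78.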

How the data were processed

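RNA was extracted from root segments, depleted of ribosomal RNA and sequenced on an Illumina instrument. Per the study's methods and the submitters' processing notes, reads were checked with FastQC, trimmed with Trimmomatic 0.36 and quantified with kallisto 0.43.0 on the AtRTD2 transcripts. The authors deposited estimated counts per gene, which were cut to whole numbers here by dropping any fraction. A strand option is not given in the sources used here.

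Groups were taken from the sample labels. Each pair of groups was fitted with edgeR 4.0.16 (R 4.3.3; TMM, filterByExpr with a minimum count of 10, quasi-likelihood test) on its 6 libraries, and interactions on the 12 libraries they need, where a call needs the adjusted p alone. Fold changes carry edgeR's default prior count, which shrinks those of low genes. The scripts were tested on simulated data. Alternatives were DESeq2 1.42.0, its size factors, no filter, a log2 cutoff of 0.05, organelle and ribosomal RNA genes left out, all 4 groups of a time in 1 fit, the replicate number as a block, and leaving out each library. Nothing in the labels says that replicates are separate cultures, though the study describes repeated experiments; p-values measure the spread between these libraries. Same-numbered libraries deviated together in 6 of 10 comparisons (every r over 0.1, from 0.11 to 0.40), a pairing read from the counts. Sequences, positions and transcript lengths are those of RefSeq on TAIR10.1, and transcripts were compared with blastn 2.17.0. The members and lists were chosen with earlier results of these data known. At most 3 genes of each pathway list are named, those with the smallest p over the 6 comparisons with DMSO (1 such gene is not reported here), and the PHB to PHV ratio was picked after its values were seen.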

Additional observations from a re-analysis of the deposited data

How the results depend on the processing

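Of the 15 calls described for the 8 genes, 15 held with DESeq2's size factors, without the filter on low counts and without organelle and ribosomal RNA genes, 13 with DESeq2, 13 with all 4 groups in 1 fit and 13 with the replicate block. No called value changed sign under any alternative run. With a log2 cutoff of 0.05, the number of genes called was 2 in BAP against DMSO at 4 h (0 at 0.5; 26.2% of all genes at 0.05), 5 in EST + BAP against BAP at 24 h (3 at 0.5; 41.7%) and 4 in EST + BAP against EST at 24 h (1 at 0.5; 49.9%). At that cutoff CNA was added in EST and in BAP, and PHV in EST + BAP, against DMSO at 24 h, which made 4 (24.6% of all genes), 3 (49.5%) and 4 (31.2%). With the replicate block, EST + BAP against DMSO at 4 h called 1 gene in place of 2, and with all 4 groups in 1 fit, EST + BAP against BAP at 4 h called 0 in place of 1. Leaving out 1 library gave 1 to 2 genes called in EST + BAP against DMSO at 4 h and 0 to 1 in EST + BAP against BAP at 4 h. At 24 h it gave 1 to 2 in BAP against DMSO and 1 to 2 in EST + BAP against EST. The 24-h call of ATHB8 in EST against DMSO was kept in 2 of 6 such fits. ZPR3 kept its 24-h call in 3 of 6 for EST + BAP against DMSO and in 1 of 6 for EST + BAP against BAP. Over the 15 calls, 68 of these fits kept the call and 22 lost it. Beyond the smaller number of libraries, the cause of these changes was not tested. Low counts limit ZPR1, ZPR2 and ZPR3.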

Other observations

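ZPR4, the LITTLE ZIPPER gene most like ZPR3 by transcript, was not among the 8 genes. At 24 h it had 1.11 ± 0.247 CPM in EST + BAP, 2.23 ± 0.490 CPM in BAP, 1.34 ± 0.120 CPM in EST and 2.12 ± 0.246 CPM in DMSO (SD, n = 3 each). It was called lower in EST + BAP than in DMSO (log2 fold change -0.90, edgeR) and than in BAP (-0.96, edgeR), whereas ZPR1 was called higher in both comparisons.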
